A study of Neurospora crassa with 6 samples.

Results

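The comparison set hyphae of the filamentous fungus Neurospora crassa kept at 1000 lux against hyphae kept in darkness. All libraries came from the strain labelled △cry,△vvd,△wc-1, so the dark controls have the same genotype label, and no strain labelled as having these genes was analysed here. Cultures were moved from minimal slants into medium with 2% glucose and held there for 45 min in the stated light. The contrast rests on 4 of the 6 libraries, 2 in darkness and 2 at 1000 lux, and the remaining 2 were kept at 5000 lux and also entered the estimate of the spread. Of the 10559 genes in the deposited table, 7841 reached at least 1 RPKM (a read density that allows for gene length and for depth) in at least 2 libraries and were tested, and 2718 lay below that minimum. The labels call the tissue hyphae, and nothing in them tells whether replicates were grown as separate cultures, so p-values measure the spread between these libraries, which may be technical.

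As background, the White Collar complex, made of White Collar-1 and White Collar-2, is the main blue-light receptor and light-activated transcription factor of this fungus. VIVID, encoded by vvd, is a blue-light photoreceptor that dampens it, and cry encodes a cryptochrome. Neurospora is also a classical organism of amino acid genetics, in which the cross-pathway control raises the genes of many amino acid pathways together through the transcription factor CPC-1 when an amino acid runs short. Growth on glucose represses the enzymes of acetate use and gluconeogenesis, and the cell wall and the conidium carry proteins whose genes respond to the clock and to development.

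Gene reads, worked out from the deposited values, came to 16460000 to 21630000 per library. Log2 values of the libraries of a condition correlated across genes at 0.9903 to 0.9933. Values of wc-1 were 9.04 and 7.78 RPKM in darkness and 7.38 and 6.96 at 1000 lux, and those of vvd and cry lay between 1.59 and 3.44 RPKM in these 4 libraries, so none of the 3 genes was at 0. These values do not check the labels, because 1 value for a whole gene leaves out where in it the reads lie. Genes of ribosomal RNA held 2.62% to 5.35% of the RPKM sum of a library.

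Among gene groups formed by symbol, functions that fell at 1000 lux included enzymes of amino acid synthesis, of acetate use and gluconeogenesis, and some of vitamin synthesis. Lower calls also lay outside these, among them 10 of 52 transcription factor genes, not all of development, 7 of 46 stk kinase genes and 4 of 11 heat shock genes. Those counts varied with the library left out. Functions that rose were found at the cell surface and among the clock-controlled genes with a ccg symbol. By small amounts, a few genes of sulfur uptake, sterol and fatty acid synthesis rose. The sterol and fatty acid calls were lost without 1000 lux replicate 1. Proteasome, chromatin and DNA repair genes showed few calls or none, and the counts of respiratory chain and vacuolar genes varied with the scaling. In all, 716 genes (9.13%) rose and 613 (7.82%) fell at a limma adjusted p under 0.05, and these percentages are the background for each gene group below. Most changes were small: 321 of the 716 and 250 of the 613 reached 1.5-fold, and 48 (0.612%) and 38 (0.485%) reached 2-fold.

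The called genes that rose took 9.13% of the RPKM sum in darkness and 13.8% at 1000 lux, while those that fell went from 11.1% to 7.27%. Both directions follow from the choice of the genes in these same libraries, so the shares are a description. Each of the 1329 called genes kept its sign when any library was left out. This has to be so wherever the dark and the 1000 lux libraries do not overlap, so it is no check of a call. Most of the calls did not hold without every library in turn. The counts rested most on 1000 lux replicate 1, without which 239 genes rose and 186 fell. With 1000 lux replicate 2 left out 384 genes fell, and dark replicate 1 left out gave 367. Only 195 of the called genes carry a symbol in the reference gene table, so the gene groups here, formed by symbol, describe a small part of the response. Over the 747 tested genes in the 46 groups with at least 4 tested members, 59 rose and 88 fell.

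**Figure D1:**
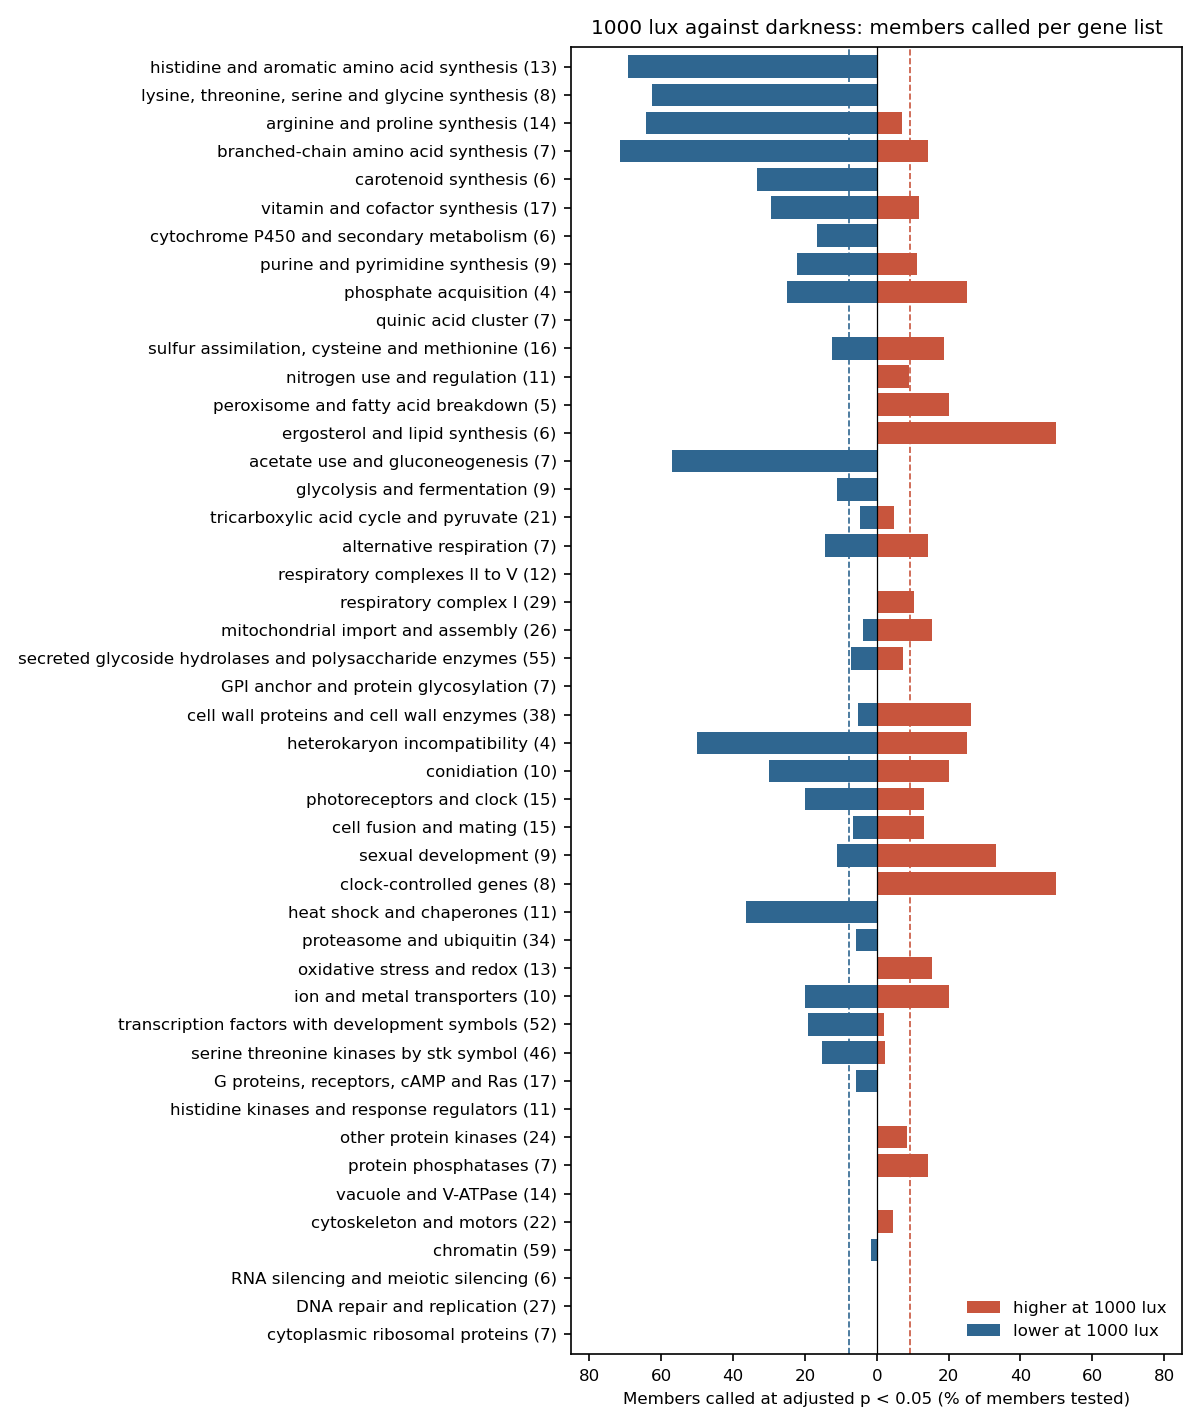
Bars give the percentage of tested members of each of 46 gene groups called higher (red, to the right) or lower (blue, to the left) at 1000 lux by limma, at an adjusted p under 0.05, with the number tested in parentheses. Dashed lines mark the same percentages over all 7841 genes, 9.13% and 7.82%. The 4 amino acid groups at the top have 62.5% to 71.4% of members lower.

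Amino acid synthesis was the widest change. Of 42 tested genes in 4 groups (arginine and proline; histidine and the aromatic amino acids; the branched-chain amino acids; lysine, threonine, serine and glycine), 28 fell (66.7%) and 2 rose (4.76%). Their RPKM summed to 3420 and 3472 in the dark libraries, 2456 and 2608 at 1000 lux, then 3235 and 3037 at 5000 lux, so both libraries at 1000 lux lay below all the others. The median log2 fold change was -0.45, against 0.00 over all genes tested, and 35 of the 42 had both libraries at 1000 lux below both dark libraries, where 28.5% of all genes did. Of the 28, 15 kept their call without every library in turn, and without 1000 lux replicate 1 the lower count was 15. These groups were drawn up with results of these data known, so their counts are a description and carry no test of the group.

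The largest falls included steps in several pathways. aro-1 (NCU01632), which encodes the pentafunctional enzyme of the shikimate pathway that leads to the aromatic amino acids, had 49.8 and 49.9 RPKM in darkness and 25.6 and 27.6 at 1000 lux. arg-10 (NCU08162), which encodes argininosuccinate lyase, the last step of arginine synthesis, had 155 and 147 RPKM in darkness and 66.8 and 80 at 1000 lux. lys-3 (NCU03010), a gene of lysine synthesis, had 32.4 RPKM in each dark library and 14.9 and 17.4 at 1000 lux. In all 3 genes both light libraries lay below both dark libraries, and the gap between the groups was wider than the gap between replicates. Their log2 fold changes were -0.88 (SE 0.09, limma adjusted p = 0.0003238), -1.04 (SE 0.11, limma adjusted p = 0.0005645) and, for the latter, -0.96 (SE 0.11, adjusted p = 0.0006207), and each call was kept without every library.

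By pathway, 9 of 13 tested genes of histidine and aromatic amino acid synthesis fell, and 7 to 8 did so without a library. They included his-6 (NCU07156, overlapping NCU07155) at -1.13, trp-3 (NCU08409, overlapping NCU16588), which encodes tryptophan synthase, at -0.88, and aro-8 (NCU02785) at -0.78. Of 14 genes of arginine and proline synthesis 9 fell, but 2 did so without 1000 lux replicate 1. arg-5 (NCU05410) had 47.4 and 47.6 RPKM in darkness and 23.7 and 25.8 at 1000 lux, a log2 fold change of -0.92 that held without every library. The calls of arg-4 (NCU10468, -0.56) and arg-3 (NCU02677, overlapping NCU02678, -0.44) were lost without 1000 lux replicate 1, at -0.48 and -0.43. The member that moved the other way, pro-1 (NCU06471, overlapping NCU06472), rose by 0.37 on the log2 scale, and its call did not hold without dark replicate 2 (0.28) or 1000 lux replicate 1 (0.32) or 2 (0.42).

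Of 8 genes in the lysine, threonine, serine and glycine group 5 fell, and 4 to 5 did so without a library. thr-4 (NCU04277) had 55.9 and 54.1 RPKM in darkness and 33.0 and 34.1 at 1000 lux, lys-5 (NCU05526) had 177 and 170 against 114 and 113, and hom-1 (NCU00554) had 95.2 and 93.5 against 63.9 and 69.7. Their log2 fold changes were -0.70, -0.61 and -0.49 and were kept without every library. In the branched-chain group 5 of 7 fell and 1 rose. The lower count was 3 without dark replicate 2 and 2 without 1000 lux replicate 1.

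Genes of the leucine pathway went in opposite directions. leu-4 (NCU02010), which encodes isopropylmalate synthase at its entry, had 58.9 and 60.7 RPKM in darkness and 32.6 and 37.1 at 1000 lux (log2 fold change -0.77, SE 0.09, limma adjusted p = 0.0009263). leu-2 (NCU04385, overlapping NCU04386), which encodes the isopropylmalate dehydratase of the next step, had 37.4 and 39.5 RPKM in darkness and 62.8 and 58.4 at 1000 lux (0.64, SE 0.08, limma adjusted p = 0.001284). At 5000 lux leu-4 had 54.1 and 50.3 RPKM and leu-2 61.0 and 61.5. leu-1 (NCU06232), for the dehydrogenase that follows, fell by 0.44 on the log2 scale, a call lost without dark replicate 2 (-0.39) or 1000 lux replicate 1 (-0.29). ilv-4 (NCU01666, overlapping NCU01667), of isoleucine and valine synthesis, had 161 and 156 RPKM in darkness and 95.2 and 105 at 1000 lux, and its fall of 0.66 held without every library.

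The regulators of the cross-pathway control, named here after their values had been seen, also differed. cpc-1 (NCU04050), for the transcription factor that corresponds to Gcn4 of Saccharomyces cerevisiae, had 485 and 529 RPKM in darkness, 351 and 399 at 1000 lux, then 425 and 395 at 5000 lux. cpc-3 (NCU01187), for the kinase that corresponds to Gcn2, had 20.5 and 17.0 RPKM in darkness and 11.8 and 12.0 at 1000 lux. Both were lower at 1000 lux without overlap, cpc-1 by -0.44 (log2 scale, SE 0.09, limma adjusted p = 0.01065) and cpc-3 by -0.61 (SE 0.11, adjusted p = 0.005085). The cpc-1 call was lost without 1000 lux replicate 1, where the log2 fold change was -0.34, and the cpc-3 call was kept without every library. cpc-2 (NCU05810, overlapping NCU05811), for a protein of the RACK1 family that binds the ribosome, had 520 and 600 RPKM in darkness and 540 and 590 at 1000 lux, groups that overlapped, and did not pass the test (0.02, SE 0.09).

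**Figure D2:**
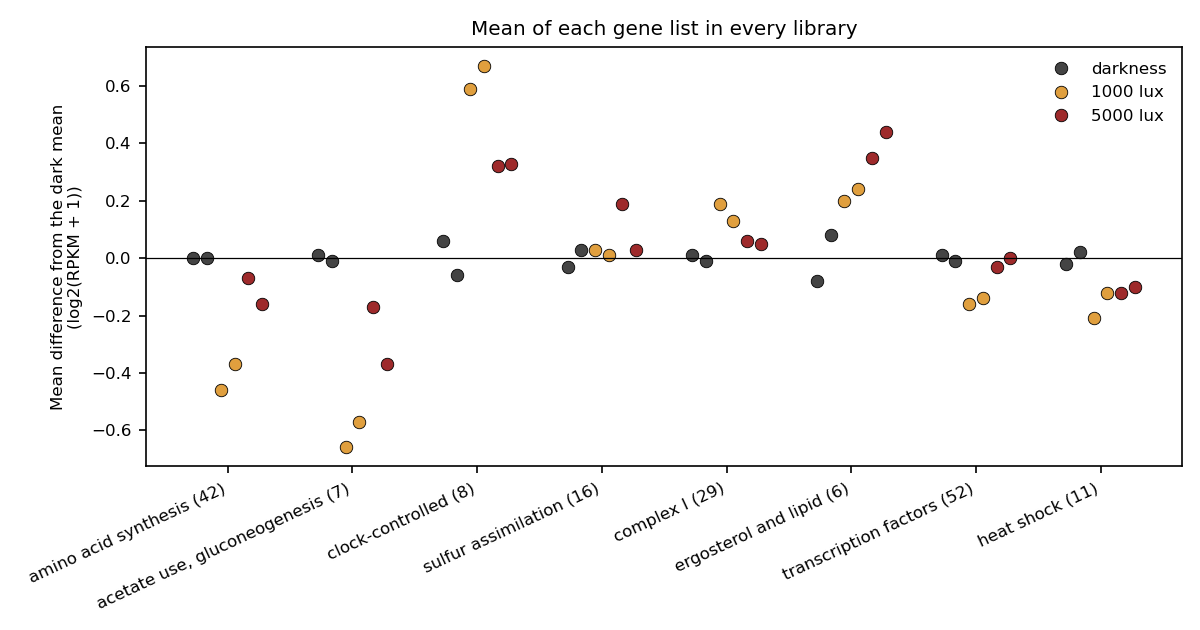
Each point is a library, and its height is the mean over the members of a gene group of log2(RPKM + 1) minus the mean of the dark libraries, with the number of members in parentheses and libraries coloured by light. The 42 amino acid genes lie at -0.46 and -0.37 at 1000 lux and at -0.07 and -0.16 at 5000 lux.

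Sulfur metabolism did not share the fall of the other amino acid groups. Of 16 genes of sulfur assimilation and of cysteine and methionine synthesis, 3 rose and 2 fell, with a median log2 fold change of 0.00. cys-11 (NCU01985), for ATP sulfurylase, which activates sulfate, had 82.6 and 94.7 RPKM in darkness and 128 and 125 at 1000 lux, and cys-4 (NCU05238) had 37.7 and 42.2 against 65.6 and 58.9. Their log2 fold changes of 0.51 and 0.63 were kept without every library. cys-14 (NCU04433), for a sulfate permease, had 41.5 and 45.3 RPKM in darkness and 65.0 and 52.5 at 1000 lux, and its call (0.42) did not hold without dark replicate 1 (0.36) or 1000 lux replicate 1 (0.27). The falls were in methionine genes, with met-7 (NCU02430) from 51.6 and 58.9 RPKM to 33.9 and 32.4 (-0.72, kept without every library). met-5 (NCU07001), for homoserine acetyltransferase, was at -0.40, a call that each dark and each 1000 lux library could end, at -0.45 to -0.35 in those fits.

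Vitamin and cofactor synthesis leaned the same way as amino acid synthesis, with 5 of 17 genes lower and 2 higher. The lower count was 2 without 1000 lux replicate 1, and the higher count was 1 without that library, dark replicate 1 or either 5000 lux library. pdx-1 (NCU06550, overlapping NCU06551), which makes the ring of vitamin B6, had 595 and 497 RPKM in darkness and 291 and 342 at 1000 lux (log2 fold change -0.78, SE 0.12, limma adjusted p = 0.002699). pdx-4 (NCU08269, overlapping NCU08270) fell by 0.58 on the log2 scale. Both pdx calls held without every library. nic-7 (NCU03963), of nicotinic acid synthesis, rose from 19.5 and 16.2 RPKM to 30.4 and 27.8 (0.68, kept without every library), while nic-5 (NCU04019) fell by 0.51, a call lost without 1000 lux replicate 1 (-0.44). Of 9 purine and pyrimidine genes 1 rose and 2 fell, and 0 rose and 0 fell without 1000 lux replicate 1, while the lower count was 1 without dark replicate 1 or 1000 lux replicate 2. Of 6 ergosterol and lipid genes 3 rose, and 0 did so without 1000 lux replicate 1. cel-1 (NCU07308) and cel-2 (NCU07307), neighbouring genes for the fatty acid synthase subunits, were at 0.44 and 0.31, and erg-4 (NCU03006) at 0.43. Without that library their log2 fold changes were 0.42, 0.29 and 0.37, and the cel-2 call was also lost without dark replicate 1 (0.28) and 1000 lux replicate 2 (0.32).

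Of 7 tested genes of acetate use and gluconeogenesis 4 fell (57.1%) and 0 rose, with 3 to 4 lower without a library, and the largest fall of any protein-coding gene was among them. acu-6 (NCU09873), for phosphoenolpyruvate carboxykinase, had 37.0 and 37.9 RPKM in darkness, 7.82 and 9.25 at 1000 lux, then 14 and 11.3 at 5000 lux. acu-3 (NCU04230), for isocitrate lyase of the glyoxylate cycle, had 34.8 and 33.1 RPKM in darkness, 14.5 and 15.7 at 1000 lux, then 30.4 and 24.2 at 5000 lux. acu-6 stayed low at both intensities, whereas acu-3 at 5000 lux was near its dark level. acu-9 (NCU10007), for malate synthase of the same cycle, had 34.6 and 38.2 RPKM in darkness and 16.7 and 20.8 at 1000 lux. acu-15 (NCU06656), which encodes a transcription factor of acetate use, had 20.5 and 17.5 RPKM in darkness and 15.0 and 14.5 at 1000 lux, and its call at -0.34 was lost without every library except dark replicate 2, where the fits gave -0.36 to -0.23.

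The tricarboxylic acid cycle and glycolysis changed little. Of 21 genes of the cycle and of pyruvate use 1 rose and 1 fell, and of 9 genes of glycolysis and fermentation 1 fell. tca-3 (NCU02366), for aconitase, had 91.1 and 111 RPKM in darkness and 167 and 154 at 1000 lux (log2 fold change 0.67, SE 0.11, limma adjusted p = 0.003582, kept without every library). tca-15 (NCU04899) was at -0.39, a call lost without dark replicate 2 (-0.25) and 1000 lux replicate 1 (-0.31). adh-1 (NCU01754, overlapping NCU01753), for an alcohol dehydrogenase and among the most abundant genes that fell, had 1320 and 1395 RPKM in darkness and 938 and 833 at 1000 lux (log2 fold change -0.62, kept without every library).

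In the mitochondrion, complex I moved by small amounts in one direction and few of its genes passed the test. Of 29 nuo genes, which encode its subunits and assembly factors, 27 had a positive log2 fold change and 23 had both libraries at 1000 lux above both dark libraries, where 30.3% of all genes did. Their summed RPKM was 4490 and 4305 in darkness, 5112 and 4814 at 1000 lux, then 4596 and 4546 at 5000 lux. The median log2 fold change was 0.17, and 3 genes (10.3%) were called higher, close to the background of 9.13%. The 3 were nuo9.8 (NCU04781, overlapping NCU04780) at 0.38, nuo21.3c (NCU05009) at 0.36 and nuo21.3b (NCU02280) at 0.27. The count was 1 without dark replicate 1 and 0 without 1000 lux replicate 1, where the 3 genes stood at 0.38, 0.31 and 0.22.

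Complex I genes are short, with a median of 1346 bp, and short genes as a whole were higher at 1000 lux. The median log2 fold change was 0.14 over 500 genes under 1000 bp, 0.06 from 1000 to 2000 bp, -0.03 from 2000 to 4000 bp and -0.08 over 821 genes of 4000 bp and more. Over genes under 1000 bp the median difference from the dark mean was 0.19 and 0.10 in the libraries at 1000 lux, 0.08 and 0.06 at 5000 lux, and 0.05 and -0.05 in darkness. After a length trend had been subtracted in each library, the complex I median was 0.07 with 2 calls, while the median of the 42 amino acid genes was -0.44 with 26 lower. The part of gene length in the complex I values was not tested.

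**Figure D3:**
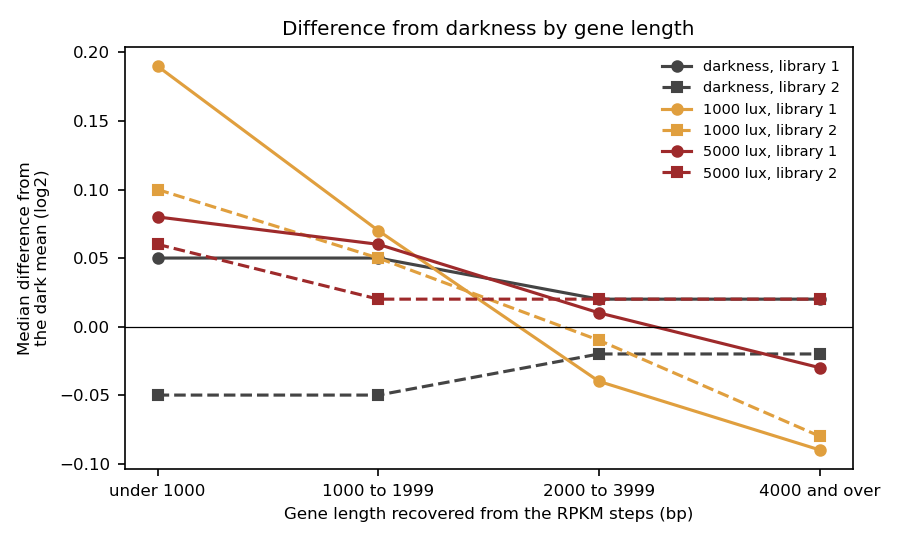
Lines join, for each library, the median over genes in 4 length classes of log2(RPKM + 1) minus the dark mean. Both libraries at 1000 lux fall from 0.19 and 0.10 in genes under 1000 bp to -0.09 and -0.08 in genes of 4000 bp and over.

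None of 12 genes of respiratory complexes II to V was called by limma, 6 had an unadjusted p under 0.05, and 1 rose without 1000 lux replicate 2. Other fits made calls in this group: 4 lower with quantile normalization, 2 lower after the length correction, 1 lower with voom on the recovered reads, and 1 higher with a replicate block. Of 26 genes of mitochondrial import and assembly 4 rose and 1 fell. The higher count was 0 without 1000 lux replicate 1, 1 with dark replicate 2 or either 5000 lux library left out, and 2 with dark replicate 1 left out. After the length correction 1 rose and 3 fell, so the balance of the group turned, and voom called 2 lower. The risers were tim54 (NCU07295, overlapping NCU07294) at 0.41 and the genes of outer membrane translocase subunits tom5 (NCU02474, overlapping NCU02473), tom20 (NCU06632) and tom22 (NCU00431) at 0.45, 0.31 and 0.30. These too are short genes, and 0 of the 7 tom genes was called after the length correction or without 1000 lux replicate 1, where the 3 stood at 0.25, 0.27 and 0.26 and tim54 at 0.33. The gene that fell was hsp60, described with the chaperones. In alternative respiration the gene of the alternative oxidase, aod-1 (NCU07953), had 25.8 and 23.7 RPKM in darkness, 8.69 and 9.23 at 1000 lux, then 13.2 and 12.5 at 5000 lux. aod-2 (NCU03352) had 6.14 and 6.07 RPKM in darkness and 10.9 and 7.95 at 1000 lux, a rise of 0.54 that was lost without either dark library (0.55 and 0.53) or 1000 lux replicate 1 (0.33).

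**Figure D4:**
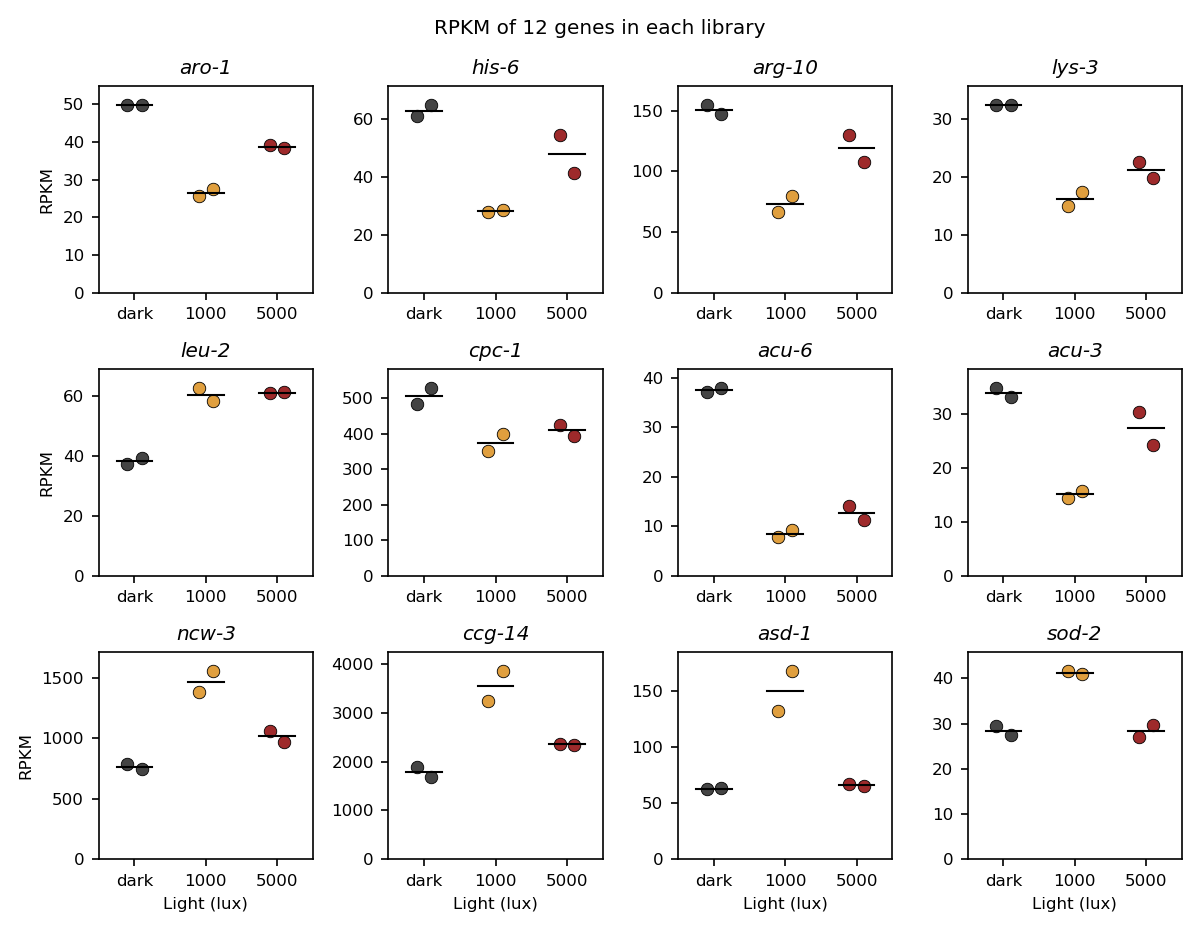
RPKM on a linear axis from 0 of 12 genes in each library, in darkness and at 1000 and 5000 lux, with points for libraries and bars for their mean. In each of the 12 panels the libraries at 1000 lux do not overlap the dark libraries. The 12 were picked among called genes, and over all genes tested 58.8% do not overlap, in one direction or the other.

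At the cell surface, 10 of 38 genes for cell wall proteins and cell wall enzymes rose (26.3%) and 2 fell, with 7 to 11 higher without a library. The change was concentrated in the ncw genes, for wall proteins that are not anchored, of which 5 of 6 rose. ncw-3 (NCU07817), the most abundant of those named, had 785 and 742 RPKM in darkness, 1379 and 1553 at 1000 lux, then 1056 and 971 at 5000 lux. ncw-6 (NCU00586) had 28.4 and 28.9 against 47.5 and 47.4 RPKM at 1000 lux, and ncw-4 (NCU02948) had 266 and 283 against 371 and 374. The log2 fold changes were 0.94 (SE 0.09, limma adjusted p = 0.0002758), 0.71 (SE 0.08, limma adjusted p = 0.0008826) and, for the latter, 0.44 (SE 0.08, adjusted p = 0.004244), each kept without every library. ncw-5 (NCU00716, overlapping NCU00715) showed the largest rise of all genes, from 47.9 and 39.6 RPKM to 185 and 239.

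Other wall genes were mixed. Of 11 mig genes 2 rose and 1 fell. The higher count was 1 after the length correction or without any library except dark replicate 1, and the lower count was 2 without dark replicate 2, after the length correction, and with voom, quantile normalization or median-of-ratios scaling. mig-2 (NCU07452, overlapping NCU07453) rose from 10.8 and 10.2 RPKM to 21.1 and 18.7, and mig-4 (NCU09040) fell from 16.8 and 15.6 RPKM to 10.1 and 6.67. mig-4 stood at 17.7 and 18.1 RPKM at 5000 lux. Of 11 acw genes, for wall proteins with an anchor, 1 rose (2 without either dark library or with a replicate block, 4 with voom) and 1 fell (2 with quantile normalization), the latter acw-7 (NCU09133) at -0.31, which each dark and each 1000 lux library could end, at -0.35 to -0.28. None of the 5 chitin synthase genes (chs) was called by limma, 2 had an unadjusted p under 0.05, and voom called 1 lower. The lower count of the wall group was 1 without dark replicate 1 or 1000 lux replicate 1. It was 5 with voom, 4 with quantile normalization or median-of-ratios scaling, and 3 with a replicate block or after the length correction.

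Of 84 genes for secreted glycoside hydrolases and other polysaccharide enzymes in the table, 55 were tested, of which 4 rose (7.27%) and 4 fell, both shares below the background. gh28-1 (NCU02369, overlapping NCU02368), of the polygalacturonase family, had 47.2 and 49.4 RPKM in darkness, 122 and 142 at 1000 lux, then 63.5 and 64.6 at 5000 lux. gh3-1 (NCU03641) rose from 12.4 and 12.9 RPKM to 19.2 and 20.6. gh18-6 (NCU05317), of the family that holds chitinases, had 8.93 and 15.3 RPKM in darkness and 5.08 and 5.84 at 1000 lux, and its call at -0.98 was lost without 1000 lux replicate 1 (-0.90). Without that library 2 genes of the group rose and 0 fell, and 1 fell with dark replicate 1 left out. The lower count was 2 without 1000 lux replicate 2 or either 5000 lux library.

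Of 8 tested clock-controlled genes taken by the symbol ccg, 4 rose (50%) and 0 fell, and the count was 4 to 5 without a library. Clock-controlled genes under other symbols were not counted here. ccg-14 (NCU07787) was the most abundant gene that rose, with 1885 and 1691 RPKM in darkness, 3252 and 3855 at 1000 lux, then 2366 and 2337 at 5000 lux. ccg-9 (NCU09559), for an enzyme of trehalose synthesis, had 3.63 and 4.21 RPKM in darkness, 8.64 and 8.24 at 1000 lux, then 4.2 and 3.6 at 5000 lux. ccg-14 lay between the dark and the 1000 lux levels at 5000 lux, and ccg-9 was back in the dark range. Their log2 fold changes at 1000 lux were 0.99 (SE 0.10, limma adjusted p = 0.0003751) and, for the latter, 0.94 (SE 0.13, adjusted p = 0.001845), both kept without every library. The group median was 0.51 at 1000 lux and fell to 0.24 with quantile normalization and 0.39 after the length correction.

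Among genes of development the directions were mixed. Of 10 conidiation genes 2 rose and 3 fell, with 1 higher without dark replicate 2 or either 1000 lux library. eas (NCU08457), for the hydrophobin of the conidial surface, had 212 and 173 RPKM in darkness, 70.6 and 76.1 at 1000 lux, then 169 and 231 at 5000 lux, while ccg-1 (NCU03753), also counted above, had 742 and 644 against 1006 and 1124 at 1000 lux. con-10 (NCU07325), at 0.681 to 3.18 RPKM, was at 0.96, and its call did not hold without dark replicate 2 (0.67) and either 1000 lux library (0.89 and 1.02). fld (NCU09739) fell from 18.8 and 17.3 RPKM to 12.4 and 11.2 (log2 fold change -0.57, kept without every library). In bulk RNA, fewer cells of a type and less RNA per cell cannot be told apart. Of 9 genes of sexual development 3 rose and 1 fell, and 1 rose without dark replicate 2 or either 1000 lux library, while 0 fell without either 1000 lux library. asd-1 (NCU05598), which acts in the ascus, had 62.7 and 63.3 RPKM in darkness, 132 and 168 at 1000 lux, then 66.8 and 65.4 at 5000 lux. asd-4 (NCU15829), for a GATA factor of ascus development, was at 0.48, and its call was lost without every library except dark replicate 1, at 0.30 to 0.55.

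Of 15 genes of cell fusion and mating 2 rose and 1 fell. prm-1 (NCU07459), for a membrane protein of cell fusion, had 37.2 and 44.6 RPKM in darkness, 74.6 and 63.8 at 1000 lux, then 80.4 and 78.1 at 5000 lux. prm-3 (NCU01669, overlapping NCU01670) had 10.4 and 9.62 RPKM in darkness, 22.5 and 19.0 at 1000 lux, then 22.6 and 21.2 at 5000 lux. In both prm genes the mean at 5000 lux was at or above that at 1000 lux. The third, ham-9 (NCU07389), of the pathway of hyphal fusion, was lower by -0.40, a call lost without either dark library (-0.38 and -0.42) or 1000 lux replicate 1 (-0.31).

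**Figure D5:**
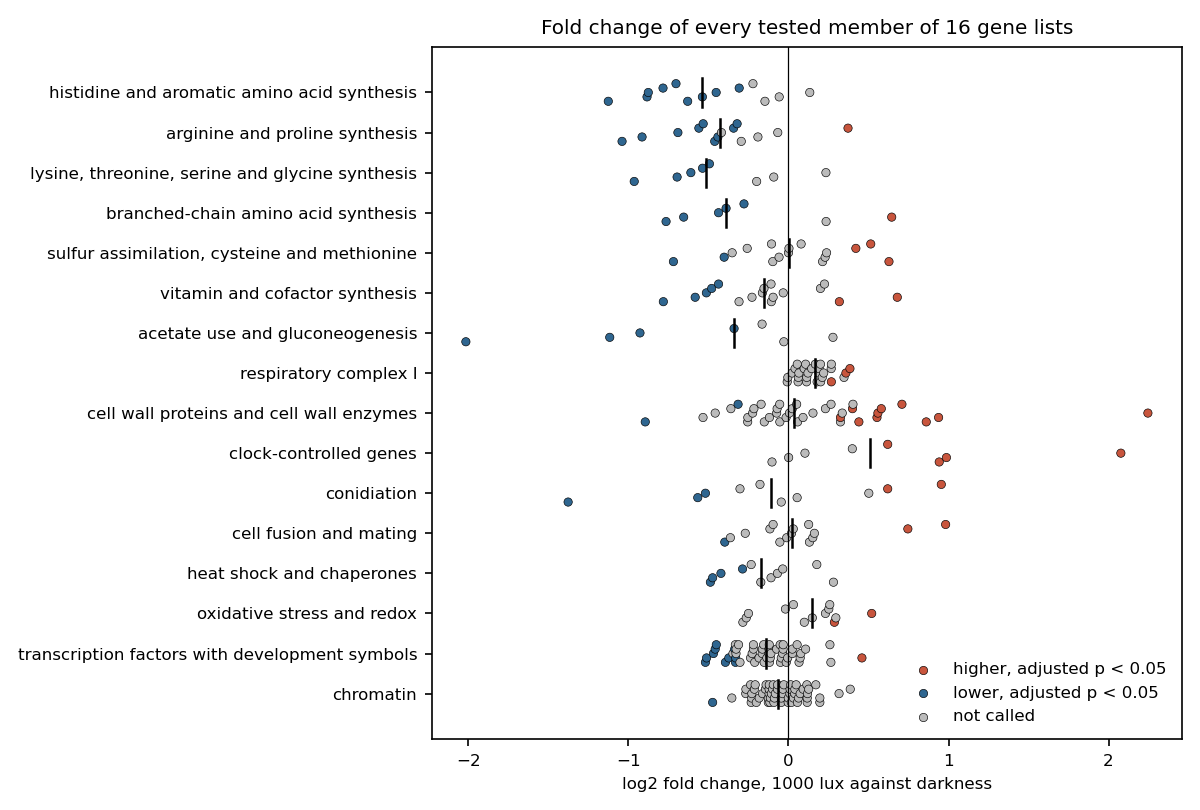
Each point is a tested gene, placed by its log2 fold change at 1000 lux against darkness, in 16 gene groups, coloured red or blue where the limma adjusted p was under 0.05 and grey otherwise, and the vertical bar is the group median. The medians run from -0.54 in histidine and aromatic amino acid synthesis to 0.51 in the clock-controlled genes.

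Smaller groups held few calls. Of 6 carotenoid genes 2 fell, al-1 (NCU00552) at -0.62 and al-2 (NCU00585) at -0.33, and the count was 1 without dark replicate 2 or 1000 lux replicate 2 and 0 without any other library. al-2 had 33.8 and 29.9 RPKM in darkness, 24.7 and 25.5 at 1000 lux, then 43.3 and 40.9 at 5000 lux, so the 5000 lux libraries were above the dark ones and the 1000 lux libraries below. Of 4 genes of heterokaryon incompatibility 1 rose, pin-c (NCU03494, 0.61), and 2 fell, het-6 (NCU03533, -0.50) and het-c (NCU03493, -0.34), and 0 of the 3 was called without 1000 lux replicate 1. Of 15 photoreceptor and clock genes 2 rose and 3 fell. prd-4 (NCU02814), for a checkpoint kinase that links DNA damage to the clock, had 21.6 and 20 RPKM in darkness and 11.2 and 13.3 at 1000 lux (log2 fold change -0.72, SE 0.12, limma adjusted p = 0.003441), the only one of the 5 calls kept without every library. vvd (-0.51) and fwd-1 (NCU04540, overlapping NCU04541, -0.30) lost theirs without every library in turn. Of these, vvd is labelled as deleted in this strain and lay at 1.95 to 3.44 RPKM. The call of frh (NCU03363, 0.41) was lost without dark replicate 1 (0.38) and 1000 lux replicate 1 (0.33), and that of nop-1 (NCU10055, 0.70), at 0.803 to 2.08 RPKM, without either dark or either 1000 lux library, at 0.67 to 0.74.

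Regulatory genes are given list by list. Of 52 genes in a group of transcription factors, many but not all of them of development, 10 fell (19.2%) and 1 rose. The lower count was 2 without dark replicate 1, 1 without 1000 lux replicate 1, and 4 without 1000 lux replicate 2 or either 5000 lux library. The one whose call, among those named, held without every library was kal-1 (NCU03593), with 45.2 and 44.9 RPKM in darkness, 32.7 and 31.8 at 1000 lux, then 41.5 and 40.2 at 5000 lux (log2 fold change -0.47). ff-1 (NCU01543, overlapping NCU16569) was at -0.46 and sah-2 (NCU04731, overlapping NCU14166) at -0.39, and their calls were lost without 1000 lux replicate 1 (-0.50 and -0.38) or 2 (-0.42 and -0.41), that of sah-2 also without dark replicate 1 (-0.29). The member that rose, pp-2 (NCU01613, overlapping NCU01614), was at 0.46, lost without dark replicate 2 (0.36) and 1000 lux replicate 1 (0.40) or 2 (0.52).

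Of 46 serine threonine kinase genes named stk 7 fell and 1 rose, and 3 fell without dark replicate 1 or either 1000 lux library. stk-34 (NCU05638) had 28.0 and 29.5 RPKM in darkness and 13.8 and 17.9 at 1000 lux, and stk-24 (NCU03796) had 28.0 and 22.1 against 14.4 and 15.0. stk-52 (NCU08767) moved the other way, from 12.9 and 12.5 RPKM to 19.1 and 18.9, and stood at 21.9 and 20.8 at 5000 lux. Log2 fold changes were -0.83, -0.72 and 0.55, all kept without every library. Both these groups hold long genes, with medians of 3191 bp and 3748 bp, and after the length correction 8 of the 52 and 5 of the 46 were lower. The part of gene length in these counts was not tested. cre-1 (NCU08807), for the repressor of carbon catabolite genes, and hsf-1 (NCU08512, overlapping NCU10388 and NCU14141), for the heat shock factor, are 2 of the 10 and are named here after their values were seen. cre-1 had 78.2 and 70.5 RPKM in darkness and 54.6 and 63.5 at 1000 lux, and hsf-1 had 18.2 and 18.0 against 13.7 and 14.5. Of their calls, at -0.33 and -0.34, that of cre-1 was lost without dark replicate 1 (-0.26), 1000 lux replicate 1 (-0.22) or either 5000 lux library, and that of hsf-1 without every library in turn.

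Of 24 other protein kinase genes 2 rose (8.33%), below the background of 9.13%, and 0 fell. voom called 3 higher and 3 lower, median-of-ratios scaling called 1 lower, and 1 fell without dark replicate 1 or dark replicate 2. mak-1 (NCU09842, overlapping NCU09843), for the MAP kinase of the cell wall integrity pathway, had 46.9 and 47.6 RPKM in darkness and 63.2 and 60.3 at 1000 lux, and mek-1 (NCU06419), for the kinase above it, had 63.7 and 60.4 against 85 and 80. Log2 fold changes were 0.38 (SE 0.08, limma adjusted p = 0.0117) and, for the latter, 0.41 (SE 0.10, adjusted p = 0.0185). Without 1000 lux replicate 1 both calls were lost, at 0.35 and 0.36, and that of mek-1 was also lost without dark replicate 2 (0.37). cnb-1 (NCU03833), for the regulatory subunit of calcineurin, was the 1 of 7 phosphatase genes called, at 0.40, and 0.38 without 1000 lux replicate 1, where the call was lost. Of 17 genes for G proteins, receptors and cAMP or Ras signalling 1 fell, rho-3 (NCU00600) at -0.31, a call lost without every library except dark replicate 2, at -0.33 to -0.21.

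Of 11 heat shock and chaperone genes 4 fell and 0 rose. The lower count was 1 without either 1000 lux library and 2 without any other library, and 1 rose with voom, with a replicate block or without dark replicate 2. hsp80 (NCU04142), for the chaperone of the Hsp90 family, had 329 and 327 RPKM in darkness, 224 and 244 at 1000 lux, then 231 and 232 at 5000 lux, and was the one whose call held without every library. hsp78 (NCU02630) was at -0.47, lost without either 1000 lux library (-0.49 and -0.46), and hsp30 (NCU09364, overlapping NCU10352) and hsp60 (NCU01589), at -0.42 and -0.29, were lost without every library in turn. Of 13 genes of oxidative stress and redox 2 rose, with 1 higher under quantile normalization or without any library except dark replicate 2, and voom called 1 lower. sod-2 (NCU01213), for the manganese superoxide dismutase of mitochondria, had 29.4 and 27.5 RPKM in darkness, 41.6 and 40.9 at 1000 lux, then 27.0 and 29.6 at 5000 lux (log2 fold change 0.52, SE 0.09, limma adjusted p = 0.004595, kept without every library). cat-1 (NCU08791), for a catalase, was at 0.29, a call lost without every library in turn.

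Of 34 proteasome and ubiquitin genes 2 fell. One was rpn-4 (NCU01640), named like the factor that activates proteasome genes in Saccharomyces cerevisiae, with 24.4 and 21.6 RPKM in darkness and 11.6 and 13.8 at 1000 lux (log2 fold change -0.81, SE 0.13, limma adjusted p = 0.002864, kept without every library). The other call was fwd-1, and no other rpn gene was called. None of 5 rpt, 6 pca and 7 pcb genes, for proteasome particles, was called by limma or voom, and 1 of them, a pca gene, had an unadjusted p under 0.05. Of 10 ion and metal transporter genes 2 rose and 2 fell: hak-1 (NCU00790), for a potassium transporter, rose from 30.7 and 29.9 RPKM to 42.9 and 44.5 (0.52), and nca-2 (NCU04736), for a calcium pump, fell from 54.2 and 48.9 to 25.9 and 33.4. The hak-1 call held without every library, and that of nca-2 (-0.79) was lost without 1000 lux replicate 1 (-0.61). Zinc transporter genes went opposite ways, with tzn-1 (NCU07621) at 0.62 and tzn-2 (NCU11414) at -0.62. The tzn-1 call was lost without 1000 lux replicate 1 (0.56), and the tzn-2 call without dark replicate 1 (-0.37) or either 1000 lux library (-0.61 and -0.63).

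Several groups, large and small, gave few calls. Of 59 chromatin genes 1 was called, set-2 (NCU00269), for the histone H3 lysine methyltransferase that travels with RNA polymerase, at -0.47, and that call did not hold without dark replicate 2 (-0.40), either 1000 lux library (-0.39 and -0.56) or either 5000 lux library, and after the length correction (-0.39). None of 27 DNA repair and replication genes, 14 vacuole genes and 11 histidine kinase and response regulator genes was called by limma. The same held for 7 cytoplasmic ribosomal protein genes, taken by the symbol crp alone, 7 genes of the quinic acid cluster, 7 of glycosylation and 6 of gene silencing. At an unadjusted p under 0.05 there were 2 DNA repair genes, 4 vacuole genes, 1 gene of silencing and 0 in the others, and voom called 1 gene of silencing lower and 0 elsewhere in these groups. Of the vacuole genes 1 fell with a replicate block, 1 with quantile normalization and 2 after the length correction, and 1 gene of silencing fell with quantile normalization or median-of-ratios scaling. Without dark replicate 2, 1 gene of DNA repair and 1 of silencing fell and 1 of the quinic acid cluster rose. None of 20 pex genes, for peroxisome assembly, was called by limma or voom, and 0 had an unadjusted p under 0.05. A count of 0 here says that no change passed the test with 2 libraries a group.

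The changes at 1000 lux were set beside those at 5000 lux, which used the same dark libraries, so the values are given side by side and no overlap is read from them. The median log2 fold change of the 716 genes that rose at 1000 lux was 0.55 there and 0.44 at 5000 lux, and that of the 613 that fell was -0.53 and -0.28. Because the genes were chosen at 1000 lux, a smaller median at 5000 lux is no finding in itself. The difference between the intensities was therefore tested in each gene. At a limma adjusted p under 0.05, 69 of the 716 (9.64%) were lower at 5000 than at 1000 lux, where 1.36% of all genes were, and 2 were higher. Of the 613, 93 (15.2%) were higher at 5000 lux, where 1.66% of all genes were, and 1 was lower. This contrast shares the libraries at 1000 lux with the choice of the genes, so these shares are a description.

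Among amino acid genes the difference between intensities was called in 13 of 42, all higher at 5000 than at 1000 lux, and none was lower. Over all genes 1.66% were higher and 1.36% lower in this contrast. No such call in an amino acid gene held without every library in turn. The median of the 42 at 5000 lux against darkness was -0.13, with 8 lower and 1 higher, where 2.92% and 6.7% of all genes were. his-6 had 60.9 and 64.9 RPKM in darkness, 27.8 and 28.7 at 1000 lux, then 54.6 and 41.4 at 5000 lux. Of the cysteine genes, cys-11 stood at 130 and 121 RPKM at 5000 lux against 128 and 125 at 1000 lux, a log2 difference of -0.01 (SE 0.09) that did not pass the test.

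Most called genes, 1134 of 1329, have no symbol, and several of the largest changes were among them. NCU00399 (overlapping NCU00398) had 316 and 297 RPKM in darkness, 1381 and 1474 at 1000 lux, then 579 and 539 at 5000 lux (log2 fold change 2.22, SE 0.08, limma adjusted p = 9.095e-07), the smallest adjusted p of the named genes. NCU00322 had 11.2 and 12.9 RPKM in darkness, 37.6 and 46.0 at 1000 lux, then 14.4 and 16.3 at 5000 lux, and NCU07921 had 10.6 and 11.5, 35.9 and 36.7, and 21.6 and 26.9. In these 3 genes the libraries at 1000 lux lay above all others. On the lower side NCU11356 had 145 and 105 RPKM in darkness, 47.0 and 42.9 at 1000 lux, then 125 and 88.6 at 5000 lux, and NCU17064 had 37.8 and 38.2, 13.2 and 12.8, and 29.8 and 15.6. The calls of these 5 were kept without every library.

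NCU04951 was the most abundant called gene without a symbol that rose, from 1223 and 1323 RPKM to 2174 and 1948. NCU10051, which fell from 1745 and 1379 RPKM to 1045 and 988, was the most abundant protein-coding gene that fell. Of 17 tested genes annotated as ribosomal RNA 3 fell. Of these, NCU15731 (overlapping NCU15796, NCU15798 and NCU17393) had 42 and 75.2 RPKM in darkness, 1.64 and 26.3 at 1000 lux, then 0.117 and 0.0706 at 5000 lux, so the replicates at 1000 lux were far apart, and its call (-2.75) was lost without every library except 1000 lux replicate 2, with a log2 fold change of -1.07 without 1000 lux replicate 1. NCU17319 and NCU15828, which also overlap other loci, were at -0.57 and -0.66 and lost their calls without dark replicate 2 (-0.34 and -0.50) and 1000 lux replicate 2 (-0.39 and -0.45).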

How the data were processed

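PolyA RNA was sequenced from 6 libraries, 2 in each of 3 groups, and the authors deposited RPKM per gene, per the file headers. CASAVA 1.8 and HISAT are named in the submitters' processing notes without their roles, while the genome build, counting tool and strandedness have no mention in those notes or the labels (not given in the sources used here). Where genes overlap, their reads cannot be told apart. Of the gene IDs, 10526 matched the RefSeq NC12 gene table, used for symbols, gene types, overlaps and neighbours, and 33 did not. Whole reads were recovered from the RPKM steps for 9773 of 9773 genes above 0 (tolerance 0.005 of a read plus a relative 3e-07), giving 16460000 to 21630000 reads on genes per library. A count of 3 reads in a gene of 2000 bp is 0.0531 to 0.07 RPKM, which limits the precision of low genes, for counting error only.

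Values were taken as log2(RPKM + 1), which understates the change of low genes. limma 3.58.1 in R 4.3.3 fitted the 3 groups together with a variance trend (3 residual degrees of freedom, prior 6.87), and Benjamini-Hochberg adjustment ran over the 7841 genes. A script on simulated data with 1.5-fold changes in the contrast of 1000 lux with darkness recovered 88 of 99 changed genes, among 7961 genes. It called 11 of 7763 unchanged genes. Every simulated gene had the same spread between libraries (SD 0.0895 on the log2 scale), so these counts do not give the power in the real data. Tables and plots used Python 3.11.15, numpy 2.4.6, pandas 2.3.3 and matplotlib 3.10.9. Alternatives were other pseudocounts, filters, scalings and samples, a replicate block, and leaving out each library. voom on the recovered reads (763 higher, 741 lower) and a lowess correction for gene length in each library were chosen after seeing the data.

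The 57 gene lists were formed from symbols, and they and the contrast were chosen with earlier results of these data known. Of these, 9 had fewer than 4 tested members and 2 had mixed symbol patterns, and 25 symbols were dropped from lists they did not belong to. Genes named were the 10 largest called changes in each direction whose libraries did not overlap, up to 4 called members of each list or described symbol stem with the smallest adjusted p, up to 2 members called in the opposite direction, wc-1, vvd and cry, and the 5 most abundant called genes in each direction. cpc-1, cpc-2, cpc-3, cre-1 and hsf-1 were named after their values were seen. Protein and promoter sequences were not used here.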

Additional observations from a re-analysis of the deposited data

Results flagged for a closer look

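In 42 of the named genes the effect of 1000 lux differed from that of 5000 lux, by the test of the difference itself (limma, adjusted p under 0.05 over all 7841 genes). Of these, 26 had fallen at 1000 lux and 16 had risen. The values that follow are log2 differences, 5000 lux minus 1000 lux. They share the libraries at 1000 lux with the choice of the genes.

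The genes of amino acid synthesis listed next fell at 1000 lux, and their called differences were positive, toward the dark level. Other named genes of these pathways had no called difference, and that of leu-1, at -0.08, pointed away from the dark level. In the arginine pathway the difference was 0.69 for arg-10, 0.41 for arg-5 and 0.51 for arg-4. In the histidine and aromatic pathways it was 0.73 for his-6, 0.65 for aro-8, 0.59 for aro-7, 0.53 for aro-1, 0.43 for trp-2 and 0.41 for trp-3. It was 0.57 for leu-4, 0.51 for lys-5, 0.38 for thr-4 and 0.36 for hom-1 in the remaining amino acid genes.

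Other genes that fell at 1000 lux also stood higher at 5000 lux. For enzymes and regulators of carbon use, respiration, purines, vitamin B6 and carotenoids the difference was 0.81 for acu-3, 0.58 for acu-15, 0.47 for aod-1, 0.66 for ad-8, 0.48 for gua-3, 0.55 for pdx-1 and 0.72 for al-2. For surface proteins it was 1.42 for eas and 1.03 for mig-4. For genes without a symbol it was 1.21 for NCU11356, 1.18 for NCU10342, 1.03 for NCU04583 and 0.81 for NCU11365. One gene that rose at 1000 lux was higher still at 5000 lux, with a difference of 0.36 for cel-2.

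The other genes that rose at 1000 lux stood lower at 5000 lux. Among wall proteins and polysaccharide enzymes the difference was -0.96 for ncw-5, -0.54 for ncw-4, -0.53 for ncw-3, -1.03 for gh28-1 and -0.54 for gh3-1. Among clock-controlled genes it was -0.95 for ccg-9, -0.90 for ccg-13 and -0.59 for ccg-14. It was -1.16 for asd-1, -0.53 for sod-2 and -0.66 for pho-3 among the other genes with a symbol. For genes without one it was -1.38 for NCU00322, -1.35 for NCU00399, -0.57 for NCU07921 and -0.55 for NCU04951.

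The call on the difference was kept without every library in turn for 5 genes, namely eas, asd-1, gh28-1, NCU00322 and NCU00399. The dark libraries do not enter this difference, only the estimate of its spread, so calls kept without either of them are no check. Without 1000 lux replicate 1 there were 9, without 1000 lux replicate 2 there were 12, without 5000 lux replicate 1 there were 7, and without 5000 lux replicate 2 there were 27.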

How the results depend on the processing

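The direction of the called genes named here was the same under every alternative run. Leaving out a library could not change it, because their dark and 1000 lux libraries did not overlap. Many of them lost their call without some library. Leaving out 1 library gave 239 to 663 genes higher and 186 to 623 lower. Without 1000 lux replicate 1 the counts were 239 and 186, without 1000 lux replicate 2 the lower count was 384, and without dark replicate 1 it was 367. The cause was not tested. The share of calls that were higher was 53.9%, 64.4% without dark replicate 1 and 45.4% without dark replicate 2. Fits with other pseudocounts, filters, scalings, samples and variance models gave 503 to 782 higher and 449 to 741 lower, within 1.5 times of the counts reported. Without 1000 lux replicate 1, 67 of the 142 named genes that were called lost their call. After the length correction, chosen after seeing the data, 13 did so.

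Of the genes that were not called, cry stood at -0.30 to 0.16 when 1 library was left out, 0.16 without 1000 lux replicate 2, and 0.01 after the length correction. cpc-2 stood at -0.09 to 0.12 when 1 library was left out, -0.07 with quantile normalization, -0.09 without dark replicate 1 and -0.05 without 1000 lux replicate 2.

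Same-numbered libraries did not deviate together (correlations 0.0282, -0.0872 and 0.0515 between groups), so the numbers were not taken as pairs. With a replicate block 737 genes rose and 606 fell. Precision is limited by 2 libraries a group, and in genes under 5 RPKM 3.14% rose and 4.69% fell, against 14% and 9.63% at 100 RPKM and over.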

Other observations

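Genes next to each other on a chromosome, in the order of the NC12 gene table, were called in the same direction in some places. Of 6491 neighbouring pairs of tested genes, both rose in 76, both fell in 68 and the members went opposite ways in 69. Of the neighbours of a gene that rose 13% also rose, and of the neighbours of one that fell 13.7% also fell, where 9.13% and 7.82% of all genes did. In the 5514 pairs that do not overlap these shares were 11.9% and 11.8%, and no test was run on them.

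There were 8 runs of at least 3 neighbours that all rose and 8 that all fell. One run that fell held cpc-1 with NCU04048 and NCU04049, at log2 fold changes of -0.44, -0.36 and -0.38. Another held lys-5, NCU05525 and NCU05524, at -0.61, -0.85 and -0.76. egt-1 lay in another with NCU04344, which overlaps it, and NCU04342, at -0.31, -0.69 and -0.42. The run with ser-7 held NCU01428 and NCU17019, at -0.54, -0.49 and -0.33. A run that rose held the sulfate permease gene cys-14 with the overlapping NCU04435 and NCU04436, at 0.42, 0.65 and 0.71. NCU09532, NCU09533, NCU09534 and NCU09535 rose by 0.91, 0.97, 0.39 and 0.59. NCU05899 fell by 1.28 beside NCU05900 and NCU05901, at -0.70 and -0.52, and had 56.8 and 45.4 RPKM in darkness, 18.6 and 22.1 at 1000 lux, then 31.8 and 31.1 at 5000 lux. These runs were picked from the data and are descriptions.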
